A study of Mus musculus with 15 samples.

Results

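The 8 genes described here, Msln, Muc16, Upk3b, Upk1b, Krt19, Lrrn4, Wt1 and Bnc1, are marker genes of mesothelial cells, taken by name from 48440 genes counted in 15 RNA-seq libraries of mouse lung fibroblast cultures. Reads were present in all 15 libraries for Msln and Krt19, in 13 for Wt1, in 11 for Upk3b, in 10 for Upk1b, in 8 for Bnc1 and in 3 each for Lrrn4 and Muc16. The filter on low counts kept 6 of the 8 for testing and left out Lrrn4 and Muc16, which are given as counts. The files hold 5 groups of 3 libraries of C57BL/6 primary lung fibroblasts grown at 3% oxygen. Cells that had received 10 Gy of X-rays and were collected 10 days later were Atm+/+ and labelled passage 2; they served as the control for stress-induced premature senescence. Unirradiated Atm-/- cells were taken at passage 8 and passage 2, and unirradiated Atm+/+ cells at passage 8 and passage 2. ATM is a protein kinase of the response to broken DNA. Each genotype was represented by 3 independently established strains, and the labels do not say which Atm allele the mice carried. Replicates are given in the order 1 to 3.

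Mesothelium is the single layer of flat cells that covers the lung surface and lines the pleural cavity. Its cells come from embryonic mesoderm, keep keratins and other epithelial proteins, and can take on a mesenchymal form in culture. Mesothelin (Msln) is a glycoprotein anchored to the cell surface that binds the mucin MUC16. UPK1B and UPK3B are uroplakins, membrane proteins first described in the urinary tract lining, and KRT19 is a keratin of simple epithelia. WT1 and BNC1 are zinc finger transcription factors of mesothelial cells, and LRRN4 is a membrane protein with leucine-rich repeats. Of these genes Krt19 is the least particular to mesothelium, since airway epithelium uses it too.

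Library totals ranged from 13.6 to 39.2 M (mega) counts. A pair of libraries stood apart: with all libraries thinned to one depth, 15037 genes were detected in Atm-/- passage 8 replicate 3, the shallowest, 17226 in Atm+/+ passage 2 replicate 3, and 20101 or more in the remaining 13. Results of the members are therefore also given for these 13 libraries wherever that changed a call. Calls in the other gene lists were not examined in the 13. Atm had 0.133 to 0.334 TPM in the 6 Atm-/- libraries and 0.158 to 0.364 TPM in the 6 unirradiated Atm+/+ libraries, so its overlapping totals did not check the genotype labels. Xist was at 13.4 and 9.17 TPM in Atm-/- replicate 3 at passage 2 and passage 8, with Ddx3y at 0 there, and Xist was at most 0.0101 TPM in the other 13; the labels give no sex. Levels below are TPM (transcripts per M transcripts, corrected for gene length) as deposited, and fold changes are log2 values from 1 edgeR quasi-likelihood fit of the counts of all 15 libraries, with their standard error (SE). Adjusted p-values are from that fit with Benjamini-Hochberg adjustment over 18167 genes, with a threshold of 0.05.

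Promoter sequence was at hand in the RefSeq table (GRCm38.p6) for 4 of the 8 genes, Upk3b, Lrrn4, Muc16 and Bnc1. The promoters of Upk3b and Bnc1 are shown because both genes were close to silent at passage 2 and passed the test as higher at passage 8 in both genotypes. Each runs from 250 bases before the start site to 50 after it, 5′ to 3′ along the gene, with motif matches in capitals. The Upk3b window is on the plus strand at chr5:136038246-136038545 and the Bnc1 window on the minus strand at chr7:81992250-81992549.
Upk3b: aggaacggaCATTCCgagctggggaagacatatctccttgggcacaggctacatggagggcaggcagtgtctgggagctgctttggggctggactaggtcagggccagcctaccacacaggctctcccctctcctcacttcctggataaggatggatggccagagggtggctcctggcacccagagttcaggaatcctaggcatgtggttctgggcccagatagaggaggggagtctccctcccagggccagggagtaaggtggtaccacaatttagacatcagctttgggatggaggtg
Bnc1: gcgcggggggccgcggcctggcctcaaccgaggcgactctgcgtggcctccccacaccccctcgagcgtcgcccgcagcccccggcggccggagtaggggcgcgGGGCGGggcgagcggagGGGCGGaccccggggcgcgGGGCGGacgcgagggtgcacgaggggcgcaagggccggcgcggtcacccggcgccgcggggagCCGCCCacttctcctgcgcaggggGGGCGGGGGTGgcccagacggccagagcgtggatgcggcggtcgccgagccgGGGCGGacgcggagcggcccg
The sequence searches, run on both strands, were for the EGR/WT1 motifs GCGTGGGNG and GCGGGGGNG, the SP motif GGGCGG, the TEAD motif GGAATG and the TATA box TATAAA. The Upk3b window, with 58.7% G and C, held 1 match, to GGAATG on the strand opposite the gene, 241 bases before the start site. The Bnc1 window, with 83.3% G and C, held 6 matches to GGGCGG and 1 to GCGGGGGNG, which overlaps the fifth of them. Among 32851 promoters of the same length, 14.7% held GGAATG, 35.7% GGGCGG, 6.11% GCGGGGGNG, 1.9% GCGTGGGNG and 13.6% TATAAA. These matches describe the letters of the windows; binding was not measured.

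Levels differed widely among the 8 genes and between groups. In TPM, Krt19 was the most abundant in every library and made up 54.7 to 90.9% of the summed TPM of the 8 genes. Msln was second in the 3 Atm-/- passage 8 libraries and in the 3 Atm+/+ passage 8 libraries. The summed level was 24.3 to 85.7 TPM in Atm-/- passage 8, 4.55 to 8.12 in Atm-/- passage 2, 5.28 to 5.62 in irradiated cells, 10.9 to 11.4 in Atm+/+ passage 8 and 1.83 to 4.30 in Atm+/+ passage 2. The 3 Atm-/- passage 8 libraries were above all others, and the 3 Atm+/+ passage 8 libraries came next. The mean log2 summed TPM of Atm-/- cells at passage 8 was 1.94 above that of Atm+/+ cells, and 2.58 above it without Krt19. These are bulk libraries, in which fewer cells of a type and less RNA per cell cannot be told apart, nor can more cells and more RNA per cell.

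**Figure D1:**
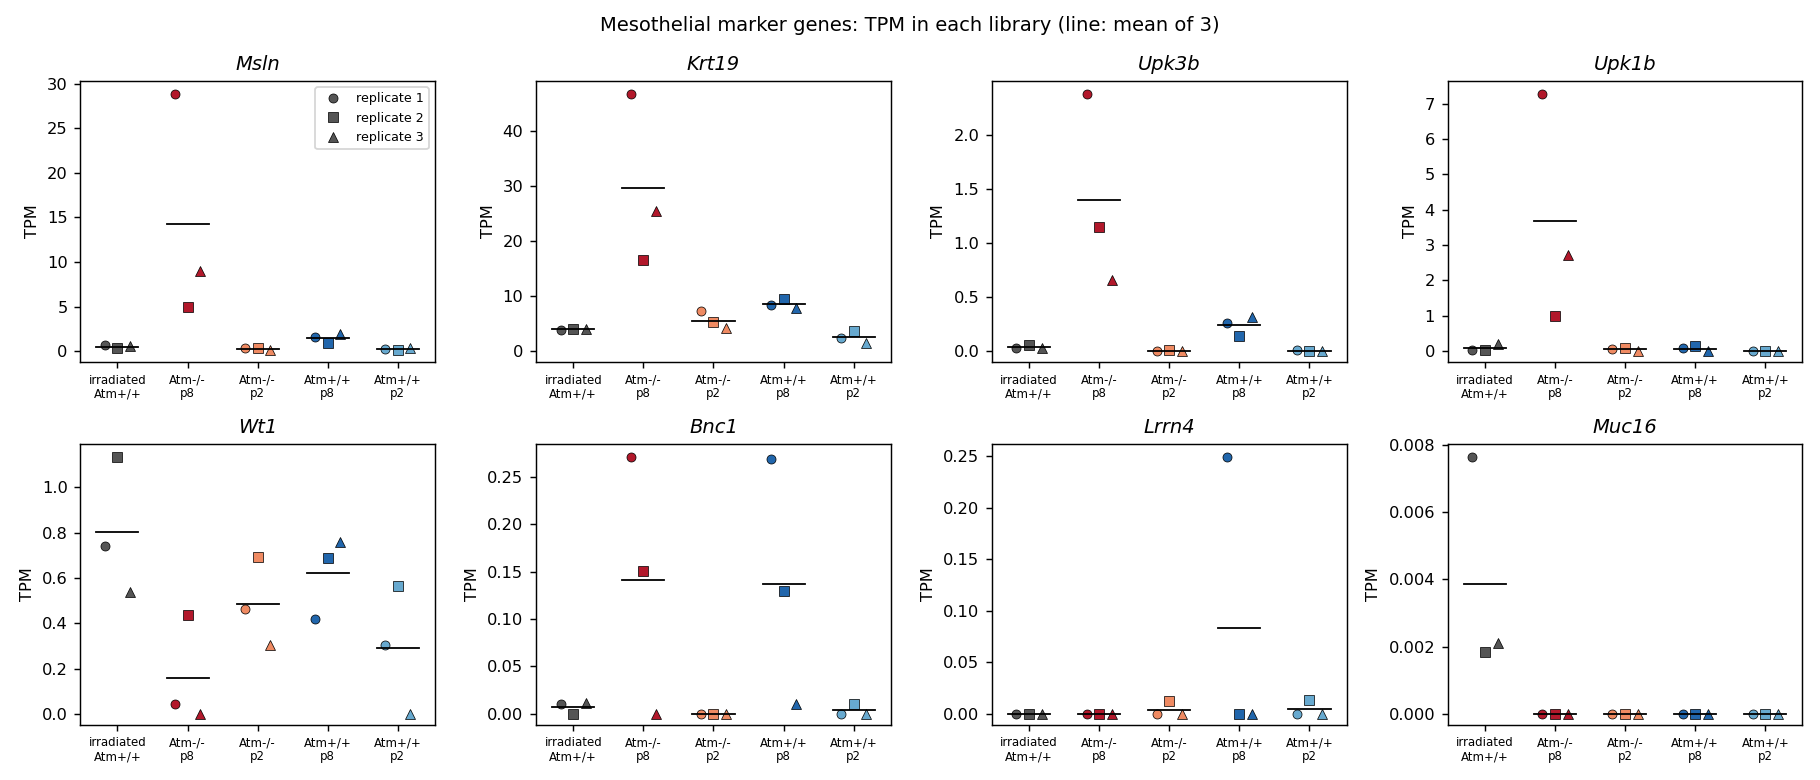
TPM (vertical axes, linear, a scale of its own per gene) of the 8 mesothelial marker genes in each library of the 5 groups, with a symbol per replicate and a line at the mean of 3. Msln, Krt19, Upk3b and Upk1b are highest in Atm-/- passage 8, whereas Wt1 reaches its highest level, 1.14 TPM, in an irradiated library and Muc16 has reads only in irradiated libraries.

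The comparison of passage 8 with passage 2 asked what long culture did to these genes in each genotype. In Atm-/- cells 5 of the 6 genes tested were higher at passage 8 (Msln, Upk3b, Upk1b, Krt19 and Bnc1) and none was lower; Wt1 did not pass. Across all genes tested, 13.0% passed in this comparison, 4.76% as higher and 8.25% as lower. The Bnc1 groups overlapped at 0, and the other 4 were without overlap, which 14.5% of all genes also showed in this direction. The median log2 fold change of the 6 was 5.18 with Bnc1, which had no read at passage 2, set at its lower bound (6.14 as fitted), against -0.08 for all genes tested. In Atm+/+ cells 4 of the 6 were higher at passage 8 (Msln, Upk3b, Krt19 and Bnc1) and none was lower, where 23.3% of all genes passed, 9.80% as higher and 13.5% as lower; Msln, Upk3b and Krt19 were without overlap, as were 24.9% of all genes in this direction, while each Bnc1 group held a library with a single read. The median of the 6 in Atm+/+ cells was 1.97 with Upk1b at its bound (3.40 as fitted), against 0.00 for all genes. Medians and counts of the 6 leave out Lrrn4 and Muc16, and genes with few reads entered the test through the group in which they were high.

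Msln (chromosome 17, 25748613 to 25754378, GRCm38, minus strand) showed the passage difference in both genotypes. Its level in Atm-/- cells was 28.9, 4.92 and 9.03 TPM at passage 8, against 0.379, 0.344 and 0.111 TPM at passage 2. Every passage 8 library was above every passage 2 library of this genotype, and replicate 1 was far above the other 2. The log2 fold change was 5.98 (SE 0.82, adjusted p = 0.000279), and 5.20 without that replicate (adjusted p = 0.00119). In Atm+/+ cells Msln had 1.58, 0.854 and 1.97 TPM at passage 8, against 0.253, 0.069 and 0.393 TPM at passage 2. The groups did not overlap, and the log2 fold change was 2.31 (SE 0.76, adjusted p = 0.0416). Leaving out any library but Atm+/+ passage 2 replicate 3 ended this call, with adjusted p from 0.0517 to 0.123. Without that replicate the log2 fold change was 3.06 (adjusted p = 0.0288).

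Krt19 (chromosome 11, 100140810 to 100148665, minus strand) behaved alike at a higher level. It had 46.9, 16.6 and 25.5 TPM in Atm-/- cells at passage 8, against 7.21, 5.24 and 4.13 TPM at passage 2. The groups were apart, with a log2 fold change of 2.77 (SE 0.36, adjusted p = 0.000186). In Atm+/+ cells it had 8.35, 9.40 and 7.86 TPM at passage 8, against 2.35, 3.64 and 1.44 TPM at passage 2. The log2 fold change was 1.63 (SE 0.36, adjusted p = 0.00530), again without overlap. These were the 2 Krt19 calls that held under every alternative run.

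The uroplakin genes had very few reads at passage 2. Upk3b (chromosome 5, 136038496 to 136046487, plus strand), whose promoter is shown above, had 193, 81 and 26 counts in Atm-/- cells at passage 8, against 0, 1 and 0 at passage 2. Each passage 8 library was above each passage 2 library, and the summed counts, 300 against 1, gave a ratio per library size of 437 (95% exact interval 77.9 to 17329, counting error only; adjusted p = 4.81e-05). In Atm+/+ cells Upk3b had 20, 9 and 23 counts at passage 8, against 1, 0 and 0 at passage 2. The ratio of the sums was 46.1 (interval 7.92 to 1857; adjusted p = 0.00141). The fitted log2 fold changes of Upk3b, 8.12 in Atm-/- and 5.09 in Atm+/+ cells, were 9.85 and 7.08 when the passage 2 library with the single read was left out, replicate 2 in Atm-/- and replicate 1 in Atm+/+ cells. Upk1b (chromosome 16, 38773184 to 38800328, minus strand) had 317, 38 and 58 counts in Atm-/- cells at passage 8, against 3, 4 and 0 at passage 2. These groups did not overlap and differed by a log2 fold change of 6.30 (SE 1.21, adjusted p = 0.00471), or 5.58 without passage 8 replicate 1. In Atm+/+ cells Upk1b had 3, 5 and 0 counts at passage 8 and none at passage 2, at least 2.37-fold higher over the group (a floor of 3 counts), which did not pass (adjusted p = 0.163).

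Of the transcription factor genes, Bnc1 differed with passage and Wt1 did not pass. Bnc1 (chromosome 7, 81966672 to 81992292, minus strand) had 29, 14 and 0 counts in Atm-/- cells at passage 8 and no read in any passage 2 library. Over the group this was at least 20.9-fold higher (floor of 3 counts; adjusted p = 0.0249). The replicate without reads was the shallowest library, where 3 counts correspond to 0.263 CPM. In Atm+/+ cells Bnc1 had 27, 11 and 1 counts at passage 8, against 0, 1 and 0 at passage 2, a ratio of the sums of 34.6 (95% exact interval 5.86 to 1401; adjusted p = 0.0477). With the strain as a block both Bnc1 calls were lost (adjusted p = 0.0546 in Atm-/- and 0.0707 in Atm+/+ cells). They were also lost when single libraries were left out: 4 of the 6 in Atm-/- cells (adjusted p from 0.0639 to 0.0788, exceptions passage 8 replicates 2 and 3) and 5 of the 6 in Atm+/+ cells (0.0615 to 0.159, exception passage 8 replicate 3). The span of Bnc1 overlaps that of the gene 4833418N17Rik on the other strand, and whether their exons overlap was not examined. The use of strand in counting is not stated, so reads in any shared exon could not be told apart.

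Wt1 (chromosome 2, 105126529 to 105173616, plus strand) had 0.0422, 0.437 and 0 TPM in Atm-/- cells at passage 8, against 0.461, 0.690 and 0.303 TPM at passage 2. The passage 8 values ran lower but overlapped those of passage 2, with a log2 fold change of -1.31 (SE 1.02, adjusted p = 0.440). With 1 library left out this value ran between -3.75 without passage 8 replicate 2 (adjusted p = 0.0585) and -0.79 without passage 8 replicate 1. In Atm+/+ cells Wt1 had 0.420, 0.690 and 0.761 TPM at passage 8, against 0.303, 0.566 and 0 TPM at passage 2, which overlapped as well (log2 fold change 1.02, SE 0.97, adjusted p = 0.461). The zeros were in the 2 libraries that stood apart, in which 3 counts correspond to 0.263 and 0.145 CPM. Its antisense neighbour Wt1os had no read in any library.

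Lrrn4 and Muc16 were close to absent. Lrrn4 (chromosome 2, 132868305 to 132880891, minus strand) had 20 counts in Atm+/+ passage 8 replicate 1 and none in the other 2 replicates of that group. Elsewhere it had 1 count in Atm-/- passage 2 replicate 2, 1 in Atm+/+ passage 2 replicate 2 and none in the 3 Atm-/- passage 8 and 3 irradiated libraries. Muc16 (chromosome 9, 18495455 to 18674530, minus strand), the mucin that mesothelin binds, had 4, 1 and 1 counts in irradiated cells and none in the other 12 libraries. Over the groups, Muc16 in irradiated cells was at least 1.53-fold higher than in Atm+/+ passage 2 and at least 1.72-fold higher than in Atm+/+ passage 8, from 6 counts against 0 in each case. It overlaps Gm25295 on the other strand, with the same limit as for Bnc1.

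**Figure D2:**
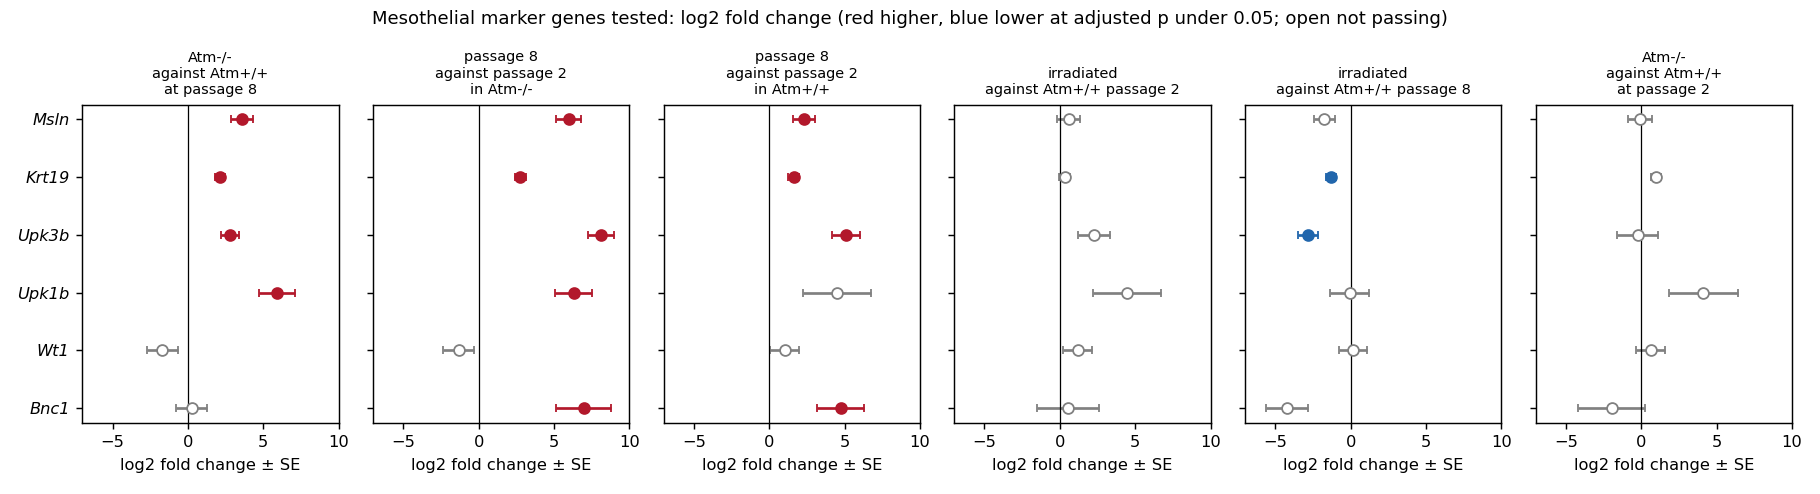
Log2 fold change with its SE (horizontal axes) of the 6 mesothelial marker genes tested, in 6 comparisons; red marks genes called higher, blue genes called lower, and open symbols genes that did not pass. Msln, Krt19, Upk3b and Upk1b are red in the Atm-/- against Atm+/+ comparison at passage 8 and in passage 8 against passage 2 in Atm-/- cells; the symbols of Bnc1 in Atm-/- passage and of Upk1b against Atm+/+ passage 2 are fitted against a group without reads and are not bounds.

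The genotypes were then compared at passage 8, where loss of Atm and long culture come together. Msln, Upk3b, Upk1b and Krt19 were higher in Atm-/- than in Atm+/+ cells, 4 of the 6 genes tested, and none was lower. Of all genes tested 9.32% passed, 5.03% as higher and 4.29% as lower, and 16.8% had groups apart in the higher direction, as the 4 did. The median log2 fold change of the 6 genes was 2.46, against -0.08 for all genes. Bnc1 and Wt1 did not pass in this comparison. The counts and the median again leave out Lrrn4 and Muc16. Upk1b had at most 7 counts in any library outside Atm-/- passage 8, and so entered the test through the group in which it was high.

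From the passage 8 levels given above, Msln averaged 14.3 ± 12.8 TPM in Atm-/- cells and 1.47 ± 0.566 TPM in Atm+/+ cells (SD, n = 3 each). The lowest Atm-/- library was above the highest Atm+/+ library, and the log2 fold change was 3.58 (SE 0.72, adjusted p = 0.00859). Without Atm-/- replicate 1 it was 2.78 (adjusted p = 0.0383). Krt19 averaged 29.7 ± 15.6 TPM in Atm-/- cells and 8.54 ± 0.787 TPM in Atm+/+ cells, a log2 fold change of 2.12 (SE 0.35, adjusted p = 0.00347). Both genes kept an adjusted p under the threshold whichever of the 6 libraries was left out.

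Upk3b averaged 1.39 ± 0.887 TPM in Atm-/- cells and 0.240 ± 0.0919 TPM in Atm+/+ cells at passage 8. Its groups did not overlap, and the log2 fold change was 2.79 (SE 0.60, adjusted p = 0.0121). Upk1b had 7.28, 1.00 and 2.72 TPM in Atm-/- cells, against 0.0734, 0.144 and 0 TPM in Atm+/+ cells, the widest gap among the 6 tested (log2 fold change 5.92, SE 1.19, adjusted p = 0.0117). Leaving out Atm-/- replicate 1 gave 5.18 for Upk1b, and leaving out Atm+/+ replicate 2 gave 6.81. The uroplakin calls depended on the Atm+/+ libraries: without replicate 1, 2 or 3 of that group Upk3b was at an adjusted p of 0.0565, 0.0650 or 0.0517, and Upk1b at 0.0630 without replicate 1 and 0.0532 without replicate 3. Calls over all genes fell as well without Atm+/+ replicate 3, to 595 from 1693 in the main fit. In a fit of the 6 passage 8 libraries alone none of the 4 genes passed (adjusted p from 0.0962 to 0.114), and only 19 of all genes did.

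Wt1 at passage 8 had 3, 27 and 0 counts in Atm-/- cells, against 28, 39 and 48 in Atm+/+ cells. Its log2 fold change of -1.70 (SE 1.02) did not pass (adjusted p = 0.290), and without Atm-/- replicate 2 it was -4.16 (adjusted p = 0.0401). In the fit without that library 3316 of all genes passed, against 1693 in the main fit. Bnc1 had nearly the same counts in both genotypes in replicates 1 and 2, and its log2 fold change was 0.26 (SE 1.03, adjusted p = 0.889). Lrrn4, with 0 counts in Atm-/- and 20 in Atm+/+ cells, was at least 5.09-fold lower over the group, but all 20 counts came from 1 library.

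At passage 2 no member differed between the genotypes by the edgeR test, nor by DESeq2 or limma, where 0.969% of all genes passed (0.341% as lower); 1 of the 6 had an unadjusted p under 0.05. That gene was Krt19, with 7.21, 5.24 and 4.13 TPM in Atm-/- cells, against 2.35, 3.64 and 1.44 TPM in Atm+/+ cells. The groups did not overlap, as for 13.7% of all genes in this direction, and the log2 fold change of 0.98 (SE 0.35) had an adjusted p of 0.232. Msln lay in the same range in both genotypes, with 18, 16 and 5 counts in Atm-/- cells and 12, 3 and 15 counts in Atm+/+ cells (log2 fold change -0.09, SE 0.80, adjusted p = 0.963). The median of the 6 genes was 0.63 with Upk1b at its bound and Bnc1, with 0 and 1 counts, left out (0.27 as fitted with both), against 0.04 for all genes.

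Whether the passage effect itself differed between genotypes was tested as the difference of the 2 fold changes. No member passed by edgeR, where 4.43% of all genes did, although 2 of the 6 had an unadjusted p under 0.05. Msln had the larger passage effect in Atm-/- cells, by 3.67 on the log2 scale (SE 1.06), with an adjusted p of 0.0573. It passed by DESeq2 (3.75, adjusted p = 0.00478), by which 1 member was called, and reached 4.19 (adjusted p = 0.0130) without Atm+/+ passage 2 replicate 2; it was 4.10 (adjusted p = 0.0189) when Atm-/- passage 8 replicate 2 was left out. Without Atm+/+ passage 2 replicate 2, 4655 of all genes passed for the difference, against 804 in the main fit. In the other 10 fits with 1 library left out Msln did not pass; its value was lowest, 2.88, without Atm-/- passage 8 replicate 1, and its adjusted p highest, 0.143, without Atm+/+ passage 2 replicate 3. Krt19 differed by 1.14 (SE 0.49, adjusted p = 0.140). The difference was 3.03 for Upk3b (SE 1.96, adjusted p = 0.307), whose passage 2 groups had 1 count each, and leaving out the passage 2 library with that count gave 1.05 (Atm+/+ replicate 1) or 4.74 (Atm-/- replicate 2). It was -2.33 for Wt1 (SE 1.41, adjusted p = 0.274). Without Atm-/- passage 8 replicate 2, Krt19 (1.47, adjusted p = 0.0248) and Wt1 (-4.80, adjusted p = 0.0469) passed together with Msln.

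Irradiated cells carried the other route to senescence in the design. Against Atm+/+ passage 2, the passage with which they are labelled, no member passed by edgeR, DESeq2 or limma, and none had an unadjusted p under 0.05 in the edgeR fit, whereas 27.5% of all genes passed. Msln had 0.667, 0.310 and 0.531 TPM in irradiated cells, against 0.253, 0.069 and 0.393 TPM in Atm+/+ passage 2, and the groups overlapped (log2 fold change 0.58, SE 0.77, adjusted p = 0.598). Krt19 had 3.89, 4.10 and 3.97 TPM in irradiated cells, all just above the 2.35, 3.64 and 1.44 TPM of Atm+/+ passage 2 (log2 fold change 0.32, SE 0.35, adjusted p = 0.517). Upk3b had 2, 4 and 2 counts in irradiated cells, against 1, 0 and 0, and Upk1b had 1, 1 and 7 counts against none. Wt1 reached 0.740, 1.14 and 0.536 TPM in irradiated cells, which overlapped its Atm+/+ passage 2 values (log2 fold change 1.18, SE 0.97, adjusted p = 0.378).

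Against Atm+/+ passage 8, 2 of the 6 genes were lower in irradiated cells, Upk3b and Krt19, where 6.89% of all genes passed and 2.59% were lower. Groups were apart in this direction for 25.6% of all genes. Upk3b had 2, 4 and 2 counts in irradiated cells, against 20, 9 and 23 in Atm+/+ passage 8. The groups did not overlap (log2 fold change -2.83, SE 0.69, adjusted p = 0.0224), but with the strain as a block the adjusted p was 0.0975. Krt19 was also apart from its Atm+/+ passage 8 values of 8.35, 9.40 and 7.86 TPM, with a log2 fold change of -1.31 (SE 0.35, adjusted p = 0.0373). Leaving out any of the 6 libraries ended the Krt19 call (adjusted p from 0.0654 to 0.141), and leaving out any but Atm+/+ passage 8 replicate 2 ended the Upk3b call (0.0734 to 0.122). Msln (-1.73, SE 0.71, adjusted p = 0.206) and Bnc1 (2 against 39 counts, adjusted p = 0.113) did not pass. In the 13 libraries Bnc1 passed as well (adjusted p = 0.0219), where 26.0% of all genes did. Upk3b and Bnc1 had few reads outside the passage 8 groups, and so entered the test through the groups in which they were high. In a fit of the 6 libraries alone Msln, Upk3b, Krt19 and Bnc1 passed (adjusted p from 3.17e-05 to 0.0151), along with 6349 of all genes, against 1252 in the fit of 15. The irradiated and Atm-/- comparisons share Atm+/+ libraries, so their values stand side by side only.

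Over the 15 libraries, Msln, Upk3b, Upk1b and Krt19 varied together on the log2 CPM scale, with pairwise Pearson correlations between 0.840 (Upk3b and Upk1b) and 0.944 (Msln and Upk3b). Bnc1 correlated with these 4 at 0.506 to 0.692, and Wt1 at -0.521 (Msln) to -0.314 (Upk3b). These correlations describe libraries that share genotype, passage and depth, and they count groups as much as strains. Among 11822 other genes whose mean log2 CPM was 0 or more, those most like Msln were Timp2 (0.972), Igf2bp1 (0.971) and Tmem151a (0.970). For Krt19 they were Nucb2 (0.966), Pusl1 (0.965) and Hspd1 (0.955), for Upk3b Tmem41b (0.964), Rras2 (0.952) and Cdkn2b (0.947), and for Upk1b Dpp7 (0.962), Scrn1 (0.953) and Adamtsl5 (0.943). Wt1 was most like Hars2 (0.959), Taf9b (0.954) and Rbbp9 (0.945), and Bnc1 like Tomm20 (0.884), Nab2 (0.864) and Dph2 (0.847). For the summed TPM of the 8 members the 5 most alike were Imp4 (0.965), Itgbl1 (0.962), Tmem41b (0.956), Gapvd1 (0.954) and Hars (0.953).

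A wider list of 24 other genes used to mark mesothelium did not move as 1 block. In Atm-/- against Atm+/+ cells at passage 8, 22 were tested, 2 were higher, 5 were lower and 15 did not pass. Their median log2 fold change was 0.25, against -0.08 for all genes. Of all genes tested, 5.03% passed as higher and 4.29% as lower. The 2 higher genes were Nkain4, an interactor of the sodium pump, and Podxl, a sialomucin also abundant in endothelium. Nkain4 had 218, 187 and 247 TPM in Atm-/- cells, against 77.9, 70.3 and 86.0 TPM in Atm+/+ cells at passage 8, without overlap (log2 fold change 1.86, SE 0.23, adjusted p = 0.000546). At passage 2 it had 46.8, 56.8 and 45.6 TPM in Atm-/- cells, against 61.5, 66.8 and 62.4 TPM in Atm+/+ cells. Its passage effect was larger in Atm-/- cells by 2.49 on the log2 scale (SE 0.31, adjusted p = 0.00291). Podxl had 28, 38 and 66 counts in Atm-/- cells at passage 8, against 1, 7 and 4 counts in Atm+/+ cells (log2 fold change 4.22, adjusted p = 0.0136), while at passage 2 it had over 800 counts in all 6 libraries.

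The 5 lower genes were Rspo1, a secreted activator of WNT signalling, Tbx18, a T-box transcription factor, the complement component C3, the growth factor gene Fgf9 and Cdh3, which encodes P-cadherin. Rspo1 had 0.972, 3.43 and 3.63 TPM in Atm-/- cells at passage 8, against 19.0, 22.2 and 19.0 TPM in Atm+/+ cells (log2 fold change -2.56, SE 0.42, adjusted p = 0.00324). It was already lower in Atm-/- cells at passage 2 (-2.30, adjusted p = 0.0138), as was C3 (-2.11, adjusted p = 0.0242). These were the 2 of 22 genes that passed at passage 2, where 0.341% of all genes passed as lower. At passage 8 the log2 fold changes were -1.09 for Tbx18, -1.49 for C3, -1.75 for Fgf9 and -2.79 for Cdh3 (adjusted p from 0.00509 to 0.0358). Calb2, which encodes calretinin, a common mesothelial stain, had 12, 8 and 0 counts in Atm-/- cells at passage 8, against 0, 0 and 1 in Atm+/+ cells, and did not pass (adjusted p = 0.0765).

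With passage in Atm-/- cells, 4 of the 22 genes were higher (Nkain4, Anxa8, Pdpn and Tbx18). Another 6 were lower (Rspo1, Slpi, Podxl, Aldh1a2, Sulf1 and Cdh1). The median of the 22 was -0.65, and 4.76% of all genes passed as higher and 8.25% as lower. In Atm+/+ cells 4 were higher (Tbx18, Anxa8, Pdpn and Cdh3) and 9 were lower. The lowest p among the 9 were those of Podxl, Rspo1, Krt18 and Cdh1. The median of the 22 was -0.75 here, and 9.80% of all genes passed as higher and 13.5% as lower. Krt18, another type I keratin of simple epithelia, fell by 3.24 on the log2 scale in Atm+/+ cells (adjusted p = 0.00146), the opposite direction to Krt19. Anxa8, an annexin, rose in both genotypes, by 2.11 in Atm-/- cells (adjusted p = 0.000141) and by 1.49 in Atm+/+ cells (adjusted p = 0.00115). Podoplanin (Pdpn), a membrane glycoprotein of mesothelial and lymphatic cells, rose by 0.56 in Atm-/- cells and by 0.49 in Atm+/+ cells (adjusted p = 0.0148 and 0.0211). Between the genotypes the passage effect was larger in Atm-/- cells for Nkain4 and Podxl and smaller for Tbx18 and Cdh3. These were 4 of 22 genes, where 4.43% of all genes passed. In irradiated cells, 2 of the 22 were higher and 8 lower than in Atm+/+ passage 2 (median -0.59). Of all genes 27.5% passed in that comparison, 16.5% as lower. Against Atm+/+ passage 8, 2 of the 22 were higher (Podxl and Calb2) and 3 lower (Ildr2, Tbx18 and C3), with a median of -0.50. Here 6.89% of all genes passed, 2.59% as lower.

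**Figure D3:**
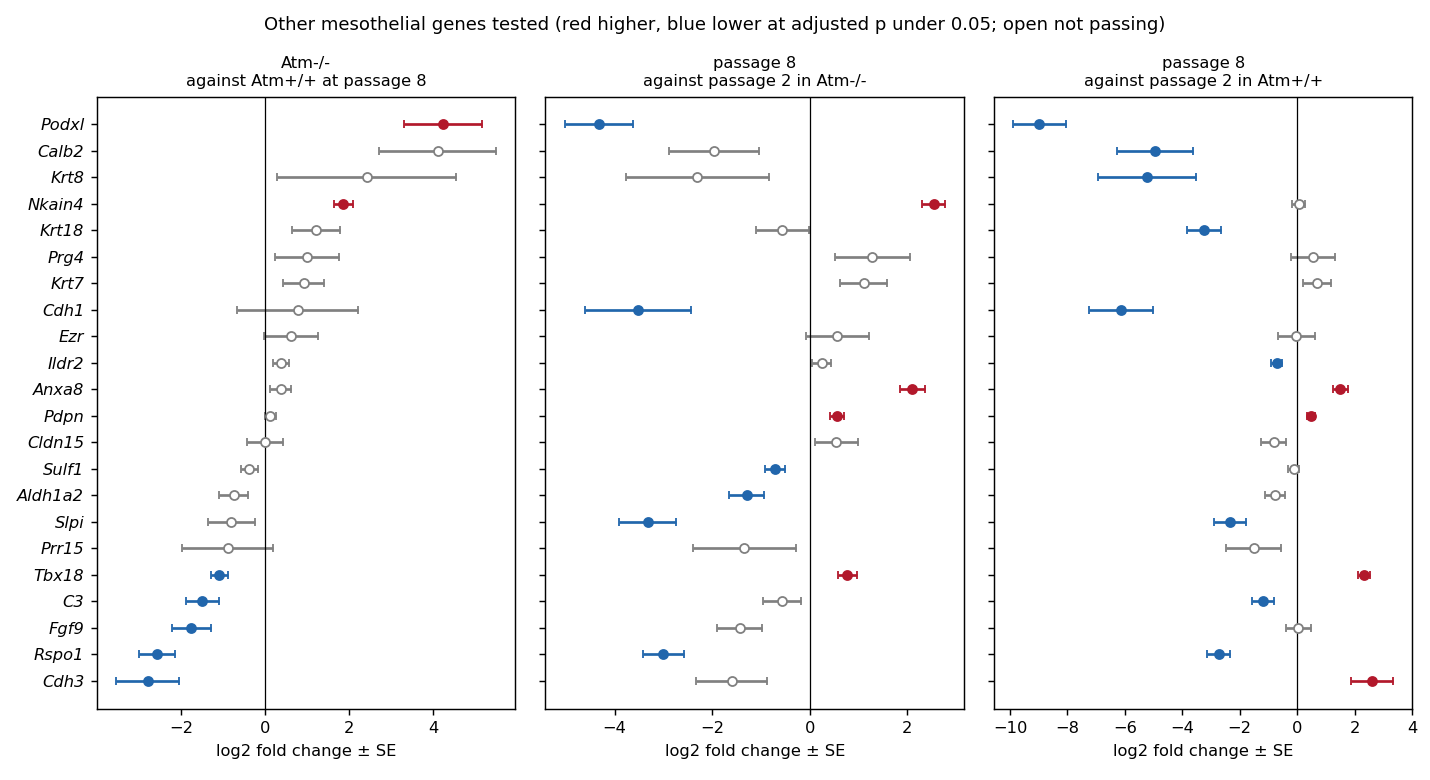
Log2 fold change with its SE (horizontal axes) of the 22 other mesothelial genes tested, ordered by their value in Atm-/- against Atm+/+ cells at passage 8; red marks genes called higher, blue genes called lower, and open symbols genes that did not pass. Podxl is called higher in the genotype comparison and lower with passage in both genotypes, while Rspo1 is blue in all 3 panels.

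Companion lists around single members were small. Of the other uroplakin genes only Upk1a was tested, and it passed in none of the 7 comparisons. Upk3bl, a gene related to Upk3b, had 21, 16 and 0 counts in Atm-/- passage 8, against 1, 1 and 0 in Atm-/- passage 2, and 5, 2 and 2 in Atm+/+ passage 8. How the authors' counting treated any reads shared with Upk3b is not stated. Of 12 genes linked to WT1, 9 were tested at passage 8 between genotypes, with 1 higher (Podxl) and 2 lower, the growth factor gene Bmp4 (-1.01, adjusted p = 0.0264) and the transcription factor gene Tcf21 (-1.52, adjusted p = 0.0364). Of 8 genes of the epithelial-mesenchymal transition, 2 were higher in Atm-/- cells, N-cadherin (Cdh2, 1.24, adjusted p = 0.00811) and vimentin (Vim, 0.67, adjusted p = 0.0499). Another 2 were lower, fibronectin (Fn1, -1.30, adjusted p = 0.00338) and Snai1 (-1.40, adjusted p = 0.0458). In this comparison 5.03% of all genes passed as higher and 4.29% as lower.

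Markers of other cells also differed between groups, not all in the direction of the members. Between genotypes at passage 8, 5.03% of all genes passed as higher and 4.29% as lower. Of 12 lung fibroblast markers 10 were lower and 1 higher in Atm-/- than in Atm+/+ cells at passage 8, with summed levels of 2709 to 5636 TPM in Atm-/- and 11237 to 14350 TPM in Atm+/+ cells. Lowest in p were the collagen genes Col1a2 (-1.93) and Col1a1 (-2.09) and the receptor gene Pdgfra (-1.67); all 12 had reads in both groups. Of 10 endothelial markers 4 were higher (Tie1, Cldn5, Kdr and Pecam1), with sums of 10.1 to 32.0 TPM in Atm-/- and 7.45 to 8.93 TPM in Atm+/+ cells. Of 13 macrophage markers 5 were lower, with sums of 19.5 to 60.5 TPM in Atm-/- and 70.0 to 113.6 TPM in Atm+/+ cells, and Ptprc (CD45) and Adgre1 (F4/80) had no read in Atm-/- passage 8. None of the 7 lung epithelial markers tested of 16 passed. Their sums were 4.82 to 6.41 TPM in Atm-/- and 7.71 to 9.91 TPM in Atm+/+ cells at passage 8, and Sftpb, Sftpd, Scgb3a2 and Krt14 were without reads in Atm-/- passage 8. In Atm+/+ passage 8, 6 of the 16 were without reads, among them Sftpd, Scgb3a2 and Krt14, and Sftpb had 1 count.

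Between passages the macrophage and endothelial markers moved further. All 13 macrophage and all 10 endothelial markers were lower at passage 8 than at passage 2 in both genotypes. Of all genes, 4.76% passed as higher and 8.25% as lower in Atm-/- cells, and 9.80% and 13.5% in Atm+/+ cells. Of the 12 fibroblast markers, 8 were lower and none higher at passage 8 in Atm-/- cells (median log2 fold change -1.09), and 1 was lower and 3 higher in Atm+/+ cells (median 0.06). Of the 7 epithelial markers tested, 1 was lower in Atm-/- cells and 4 were lower in Atm+/+ cells, and none was higher. Summed macrophage markers were 1259 to 1965 TPM in Atm-/- passage 2 and 2945 to 3458 TPM in Atm+/+ passage 2, and summed endothelial markers were 291 to 452 TPM and 331 to 793 TPM in the same groups. In irradiated cells the macrophage sum was 2013 to 3547 TPM and the endothelial sum 78.3 to 229.9 TPM. Their part in the differences of the mesothelial markers was not tested.

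**Figure D4:**
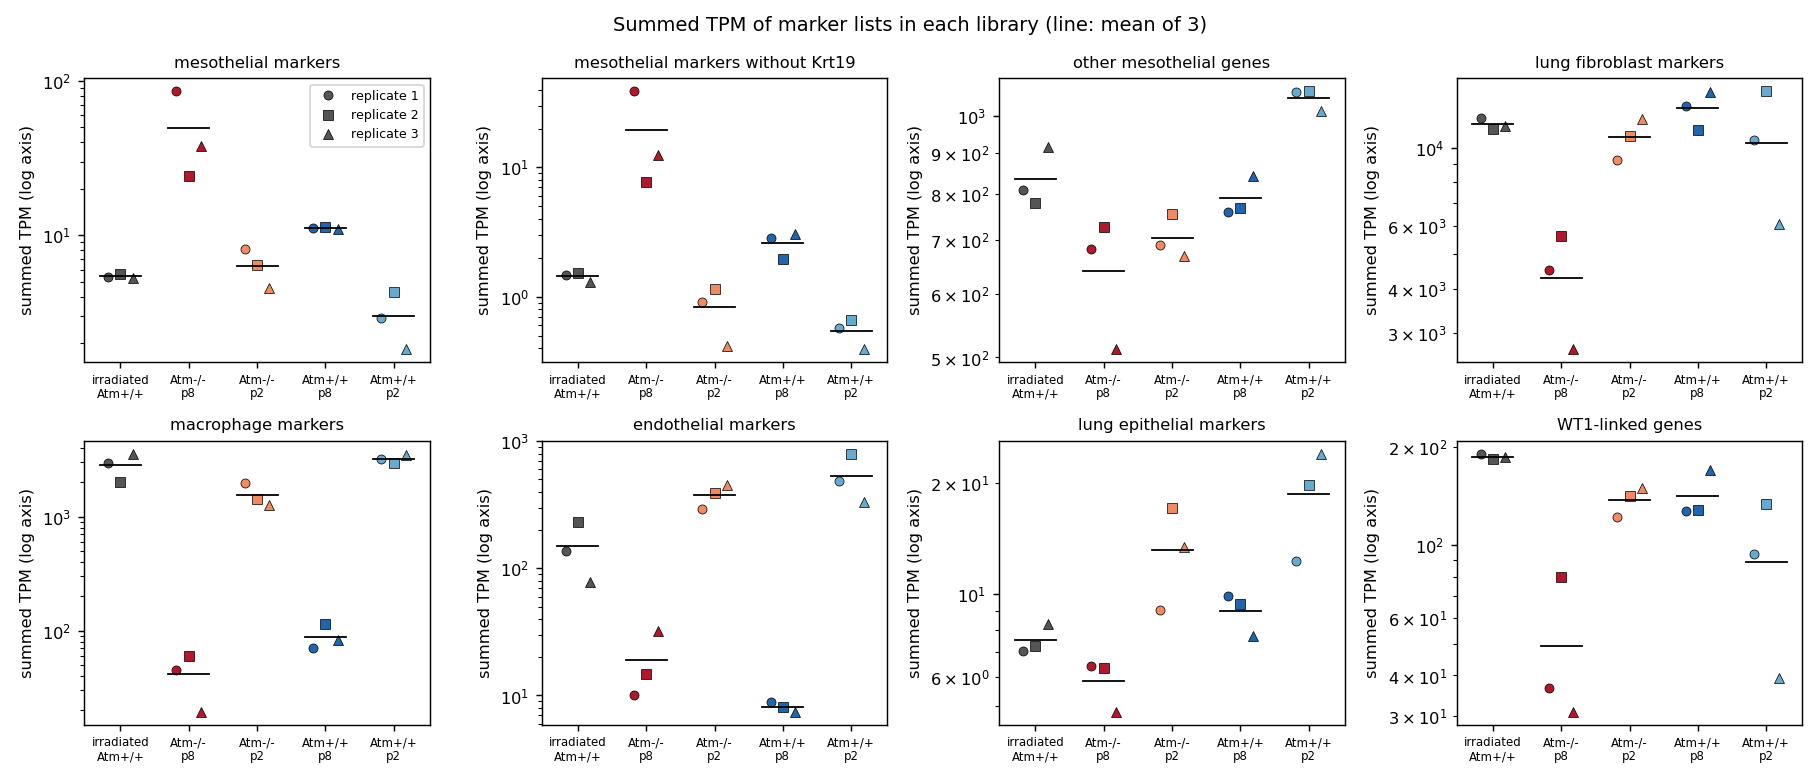
Summed TPM (vertical axes, log scale) of the 8 mesothelial marker genes, of these without Krt19, and of 6 companion lists, in each library of the 5 groups, with a symbol per replicate and a line at the mean of 3. The mesothelial sum is highest in Atm-/- passage 8 (24.3 to 85.7 TPM), where the fibroblast sum is lowest on average, while macrophage and endothelial sums separate the passage 8 groups from the others.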

How the data were processed

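Total RNA was sequenced with a TruSeq RNA kit, per the labels' protocols. The authors deposited read counts per gene, made with featureCounts on mm10 with SAMtools 1.3.1 in use, per the submitters' processing notes; for the aligner, annotation release and strandedness the sources used here give nothing. TPM values were deposited for 48082 genes, with a TPM subset of 15515 genes, which holds 4 of the 8 members. Symbols came from GENCODE vM21 (GRCm38) for 48058 of 48440 IDs. The members and all lists were chosen with earlier results of these data known.

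Counts were filtered with filterByExpr by group and scaled by TMM, and 1 robust quasi-likelihood fit (edgeR 4.0.16, R 4.3.3) held 15 libraries, with a mean per group and no block. SE is the absolute fold change over the square root of F. Simulated counts were used to test the script. Members are all named; of companion lists, up to 6 passing genes with the lowest p, and of marker lists of other cells mostly counts and sums. CPM are TMM-normalised; intervals cover counting error only, since reads carry no molecular identifiers. For the strain block, equal replicate numbers of the same genotype were treated as the same strain, which the labels do not state. After removal of group means, same-numbered libraries of the same genotype correlated at -0.20 to 0.19, so no block was used. Xist was high in Atm-/- replicate 3 at both passages, so a pairing by number is possible, which the main fit leaves out. Alternatives were DESeq2 1.42.0, its size factors in edgeR, other filters, only the groups compared, limma 3.58.1 on log2(TPM + 1) and log2(TPM + 0.1), the replicate number or strain as a block, each library left out, and 13 libraries without the pair that stood apart.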

Additional observations from a re-analysis of the deposited data

How the results depend on the processing

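With the block for the replicate number, 4 members were called between genotypes at passage 8 and no member call changed; with the strain block, 4, 3 and 1 were called in the comparisons of passage in Atm-/-, passage in Atm+/+ and irradiation against passage 8. The strict filter tested only Msln and Krt19 and called 2 between genotypes at passage 8, 2 in either passage comparison, 1 for irradiation against passage 8 and 1 (Msln) in the difference of passage effects. A fit of only the groups compared called 0 between genotypes at passage 8, 2 for passage in Atm+/+ and 4 for irradiation against passage 8. On log2(TPM + 1), with or without the filter, 1 was called for passage in Atm+/+ and 0 for irradiation against passage 8. On log2(TPM + 0.1) 0 were called for irradiation against passage 8. The difference called 1 on filtered log2(TPM + 1), and 1 by DESeq2. All genes called on filtered log2(TPM + 1) numbered 3357, 1026 and 833 in these 3 comparisons, against 4227, 1252 and 804 in the main fit. For the block and strict filter runs the number of all genes called is left out here, so their member counts stand without that share. With 1 library left out, 2 to 5 members were called between genotypes at passage 8, 4 to 5 for passage in Atm-/-, 2 to 3 for passage in Atm+/+, 0 to 1 for irradiation against passage 8 and 0 to 3 for the difference; at passage 2 and for irradiation against passage 2 the count was 0 in every alternative. With 1 library left out, all genes called numbered 595 to 3316 between genotypes at passage 8, 1494 to 3263 for passage in Atm-/-, 2207 to 6539 for passage in Atm+/+, 735 to 855 for irradiation against passage 8 and 85 to 4655 for the difference.

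Directions turned only among members that did not pass. Between genotypes at passage 2, Msln was at 0.047 and 0.20 on the 2 TPM scales, 0.11 with the number block, 0.67 in the 13 libraries and -0.61 to 0.66 with 1 library left out, and Upk3b at 0.00011 and 0.00098 on the TPM scales and -1.95 to 1.74 with 1 left out. For irradiation against passage 8, Upk1b was at 0.00077 with DESeq2 size factors, 0.012 and 0.046 on the TPM scales and -1.57 to 0.85 with 1 left out; Wt1 was at -0.014 with the number block and -0.12 to 0.40 with 1 left out. Bnc1 between genotypes at passage 8 was at -0.54 to 1.24 with 1 left out.

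TPM scaling shifted the median of all genes by -0.29 between genotypes at passage 8 and -0.32 for passage in Atm-/- on log2(TPM + 1), against -0.08 in both by TMM, and 26.8% and 14.2% of calls were then higher, against 53.9% and 36.6%. It was 52.9% against 42.1% for passage in Atm+/+, 71.8% against 40.1% and 79.0% against 62.4% for irradiation, and 21.2% against 55.5% for the difference. All genes called between genotypes at passage 8 numbered 1693, 3592 by DESeq2, 4636 in the 13 libraries and 19 in the fit of 6.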
